A study of Mus musculus with 12 samples.

Results

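Messenger RNA of 10 genes of cartilage matrix and of the cells that make it was measured in paw joints of mice with and without serum-induced arthritis. The genes were Acan, Hapln1, Comp, Matn1, Matn3, Chad, Clec3a, Sox9, Cnmd and Snorc. They were chosen by name, collagens being left out, and all 10 were found among the 52636 gene identifiers of the count table. The 12 libraries were bulk RNA of paw joint tissue, each from 1 mouse, in 3 groups of 4. Naive mice had no arthritis and received anti-gp120, which serves as the negative control antibody. The other 8 mice were studied 7 days after transfer of serum from K/BxN mice, a strain whose serum antibodies cause joint inflammation in recipients. Of these, 4 received anti-gp120 and are called control mice, and 4 received 6F2, an agonistic antibody to the myeloid receptor SIRPa, and are called anti-SIRPa mice. All 3 groups therefore received an antibody, and no group of arthritic mice without one was analysed here. The labels used here give no strain, sex, age or antibody dose.

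Cartilage is a tissue of few cells and much matrix. Its stiffness under load comes from aggrecan, a large proteoglycan encoded by Acan, whose chondroitin and keratan sulfate chains hold water and whose core protein is tied to hyaluronan by the link protein Hapln1. Smaller adapter proteins, among them Comp, the matrilins and chondroadherin, connect the collagen network with proteoglycans and with the cells. The transcription factor Sox9 turns on Acan, Col2a1 and many other matrix genes in chondrocytes. In inflamed joints, enzymes of the ADAMTS and MMP families cut aggrecan and collagen.

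Total counts were 6893969 to 17597920 per library, lowest in control mouse 2, and the 10 genes together took 0.0414% to 0.105% of them. Levels are given as CPM, read counts scaled to a common library size with TMM factors, which evens out differences in library composition. Libraries were set apart here on 3 grounds. Control mouse 1 lay apart from the other control mice for some genes, among them Acan and Comp. For others, among them Clec3a and Cilp, it lay with them. Naive mouse 4 and anti-SIRPa mouse 2 held almost no epidermal RNA, with 9.58 and 8.56 CPM summed over 11 epidermal genes against 271 to 18431 CPM in the other libraries. Control mice 2 and 4 had 0.0570% and 0.0229% of their counts on 1744 smell, taste and vomeronasal receptor genes, against at most 0.00310% elsewhere. Results are therefore also given without these libraries where that changed a call. The libraries were picked after the data were seen. Anti-SIRPa mouse 4 also differed from its group, with 18431 CPM of epidermal genes against 8.56 to 303 CPM in the other anti-SIRPa mice. Chi-square per gene, which measures how far 2 libraries disagree, was 83.9 to 106 between it and them. Among the others it was 8.95 to 17.65. Mouse 4 was left out only where single libraries were left out in turn.

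The data bore out the label of cartilage only in part. Comp, Acan, Chad and Sox9 were well measured, but Comp, Chad and Acan are also made in tendon and ligament, and Sox9 in several other tissues. Several other genes known from hyaline cartilage, singled out here after their values were seen, were at or near the limit of detection. Matn1 had 3 counts over all 12 libraries, Matn3 had 15 and Snorc had 23. Among other such genes, Ucma, Mia, Otor and Scrg1 did not exceed 0.505 CPM in any library, where 3 counts, taken as the detection floor, equal 0.170 to 0.435 CPM. Col2a1, the main collagen of hyaline cartilage, was present at 7.03 to 35.2 CPM, Col9a1 at 4.68 to 29.9 CPM, Col11a2 at 34.2 to 132 CPM and Cytl1 at 5.85 to 27.5 CPM. The 10 genes are therefore described here as named genes of whole paw joints, not as a measure of cartilage cells. In bulk tissue, fewer cells of a type and less RNA per cell cannot be told apart.

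Per kilobase of exon, which allows levels of different genes to be compared, Comp was highest in every group. Its mean was 152 ± 24.6 CPM per kb in naive, 195 ± 42.2 in control and 163 ± 8.29 in anti-SIRPa mice (SD, n = 4). In naive mice the order below it was Chad at 64.3 ± 14.8 CPM per kb, Clec3a at 16.5 ± 5.0, Sox9 at 10.2 ± 1.79 and Acan at 6.02 ± 0.758 (SD, n = 4). In every naive library Clec3a lay above Sox9 and Acan below it, though the ranges of Clec3a and Sox9 over the naive mice overlapped. Cnmd, at 0.429 CPM per kb, and Hapln1, at 0.386 CPM per kb, overlapped too, and Snorc followed at 0.173 CPM per kb. The order differed in control mice, in which the mean of Acan, 17.0 ± 9.34 CPM per kb, stood above that of Sox9, 12.8 ± 1.54, and Clec3a was at 3.69 ± 0.869 (SD, n = 4). Acan and Sox9 overlapped, since control mouse 1 had 4.35 CPM per kb of Acan and 12.1 of Sox9. Chad, at 25.5 ± 11.5 CPM per kb in control mice, could not be separated there from Acan, since their values overlapped. In anti-SIRPa mice the order of the means was that of the naive mice down to Acan, though Acan and Sox9 overlapped, with Chad at 56.9 ± 9.94, Clec3a at 16.2 ± 6.31, Sox9 at 9.72 ± 2.61 and Acan at 6.06 ± 1.40 CPM per kb (SD, n = 4).

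**Figure D1:**
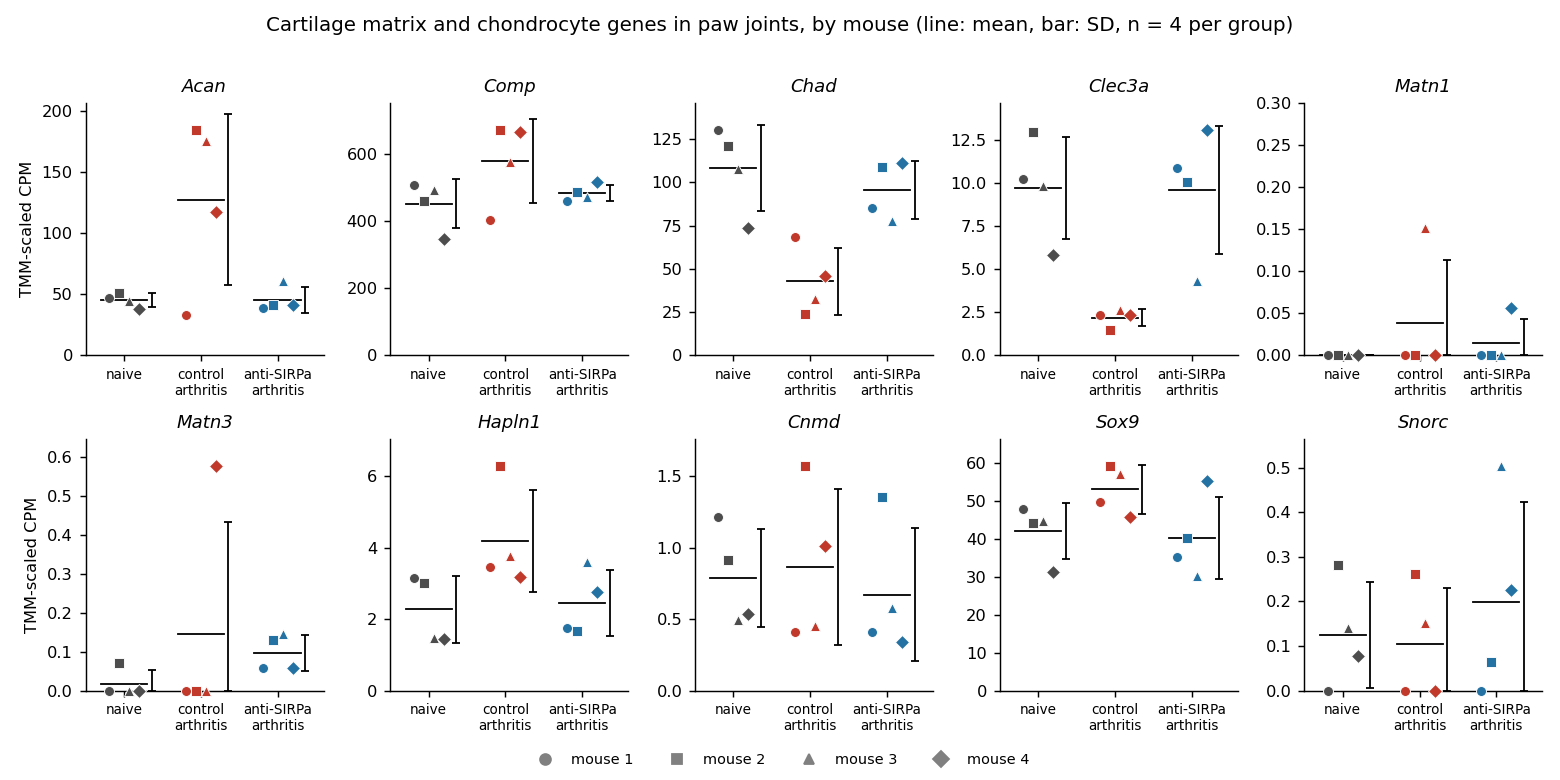
TMM-scaled CPM of the 10 genes in each of the 12 mice, 1 panel per gene, with its own linear axis from 0. Points are mice, horizontal lines are group means and vertical bars are SD (n = 4). Clec3a and Chad sit lower in all 4 control mice than in all other mice, and Acan is high in 3 of 4 control mice, the exception being mouse 1.

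Acan was the member with the highest rise in single mice. It lies at chr7:79053483-79115099 on the plus strand (GRCm38, GENCODE M21), and its identifier is ENSMUSG00000030607. The 250 bases before the RefSeq transcript start are shown for Acan and Chad because these 2 neighbours in the matrix moved in opposite directions in arthritis. For Acan they cover chr7:79052976-79053225 (GRCm38.p6, plus strand) and for Chad chr11:94564797-94565046 (GRCm38.p6, plus strand). Capitals mark the TATA box word.
Acan: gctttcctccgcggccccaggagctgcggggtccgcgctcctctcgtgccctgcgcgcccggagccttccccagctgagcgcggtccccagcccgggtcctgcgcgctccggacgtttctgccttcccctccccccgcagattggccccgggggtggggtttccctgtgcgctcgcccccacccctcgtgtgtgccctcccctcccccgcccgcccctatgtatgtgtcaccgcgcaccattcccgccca
Chad: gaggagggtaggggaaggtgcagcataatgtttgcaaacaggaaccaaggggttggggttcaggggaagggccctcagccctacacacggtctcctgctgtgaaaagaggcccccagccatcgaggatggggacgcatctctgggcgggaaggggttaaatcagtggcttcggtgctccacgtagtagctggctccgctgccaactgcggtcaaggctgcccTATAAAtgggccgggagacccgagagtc
The Acan window held 74.4% G and C and the Chad window 60.4%. Chad alone among the 6 members with an entry in the RefSeq promoter table (Acan, Chad, Matn1, Matn3, Hapln1 and Cnmd) held the word TATAAA on the gene strand, starting 28 bases before the transcript start. Of 32851 promoter windows of the same length, 7.59% did. The core words of SOX factor binding sequences, ACAATG and ACAAAG, were searched on both strands and were in none of the 6 windows, while 25.2% of all windows held at least 1 of them. A match or its absence in these windows describes only these letters. Comp, Clec3a, Sox9 and Snorc were not matched.

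In naive mice Acan was measured at 46.9, 51.2, 44.0 and 37.7 CPM. In control mice 1 to 4 it was 32.5, 184, 175 and 117 CPM. In anti-SIRPa mice it was 38.3, 40.9, 60.9 and 41.0 CPM. Control mice 2, 3 and 4 were above every naive and anti-SIRPa mouse, and control mouse 1 was the lowest of all 12. The means were 44.9 ± 5.66 in naive, 127 ± 69.8 in control and 45.3 ± 10.5 CPM in anti-SIRPa mice (SD, n = 4). Acan rose 2.83-fold in control against naive mice (log2 fold change 1.5, SE 0.42, edgeR adjusted p = 0.0466). Anti-SIRPa against control mice differed by a log2 fold change of -1.49 (SE 0.42), which missed the threshold of 0.05 (edgeR adjusted p = 0.0699). The groups overlapped in both comparisons because of control mouse 1. Without that mouse the values were 1.81 (edgeR adjusted p = 2.1e-05) and -1.80 (edgeR adjusted p = 4.0e-05). It was singled out after its low Acan was seen, and 27.2% and 23.0% of all genes passed in that fit. The rise against naive lost its call when any 1 of the other 11 libraries was left out, with edgeR adjusted p of up to 0.131, and when control mice 2 and 4 were both left out (1.18, edgeR adjusted p = 0.305).

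Hapln1, the link protein that fixes aggrecan to hyaluronan (ENSMUSG00000021613, chr13:89539796-89611652), was low in all mice. It was 3.17, 3.02, 1.48 and 1.46 CPM in naive, 3.47, 6.30, 3.78 and 3.18 CPM in control and 1.76, 1.67, 3.61 and 2.77 CPM in anti-SIRPa mice. All 4 control mice lay above all 4 naive mice, the nearest by 3.18 against 3.17 CPM. The difference between control and naive mice, a log2 fold change of 0.86 (SE 0.37), did not pass the test (edgeR adjusted p = 0.146). Anti-SIRPa against control mice gave -0.76 (SE 0.37, edgeR adjusted p = 0.220), with overlapping groups. Only 19 to 52 counts per library stood behind these values.

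Comp encodes a multi-chain adapter protein in the matrix of cartilage, tendon and ligament (ENSMUSG00000031849, chr8:70373558-70382066), and it was the most abundant member. Its level was 507, 459, 491 and 345 CPM in naive mice, 402, 670, 576 and 665 CPM in control mice and 459, 487, 472 and 516 CPM in anti-SIRPa mice. Control mice 2, 3 and 4 were again above all other mice, and control mouse 1 lay within the naive range. The log2 fold change of control against naive mice was 0.36 (SE 0.17, 95% interval -0.01 to 0.73), which did not pass (edgeR adjusted p = 0.192). Without control mouse 1 it was 0.49 and passed (edgeR adjusted p = 0.0185), where 27.2% of all genes passed in that fit. Between anti-SIRPa and control mice it was -0.26 (SE 0.17, edgeR adjusted p = 0.376).

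The matrilins Matn1 and Matn3, adapters that bind collagen fibrils and aggrecan in cartilage, were not measurable. Matn1 (ENSMUSG00000040533, chr4:130944385-130955475) had 2 counts in control mouse 3, 1 in anti-SIRPa mouse 4 and 0 in the other libraries. Matn3 (ENSMUSG00000020583, chr12:8947929-8972028) had 8 counts in control mouse 4, or 0.578 CPM, and at most 2 in any other library. Neither passed the filter on low counts, so that no difference between groups could be tested at this depth.

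Chad encodes chondroadherin, a leucine-rich repeat protein that binds collagen and integrins (ENSMUSG00000039084, chr11:94565047-94569127). It was measured at 130, 121, 108 and 73.4 CPM in naive mice, at 68.4, 24.0, 32.8 and 46.0 CPM in control mice and at 85, 109, 77.8 and 111 CPM in anti-SIRPa mice. Every control mouse was below every naive and every anti-SIRPa mouse, and control mouse 1 came nearest to them. The means were 108 ± 24.9 in naive, 42.8 ± 19.3 in control and 95.6 ± 16.7 CPM in anti-SIRPa mice (SD, n = 4). Chad fell 2.52-fold in control against naive mice (log2 fold change -1.33, SE 0.28, edgeR adjusted p = 0.0176). It was 2.23-fold higher in anti-SIRPa than in control mice (1.16, SE 0.28, edgeR adjusted p = 0.0480). Leaving out control mouse 1 made both differences larger, at -1.66 (edgeR adjusted p = 0.000558) and 1.49 (edgeR adjusted p = 0.00157). The first call was lost without control mouse 3 (edgeR adjusted p = 0.0631), and the other was kept in only 2 of the 12 fits that left out 1 library. Chad lies within the span of Acsf2 on the opposite strand, whose exons it does not share and which had 244 counts over all libraries against 14606 for Chad.

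Clec3a, a small secreted C-type lectin of cartilage (ENSMUSG00000008874, chr8:114418086-114425846), had the largest changes among the members. It was 10.2, 13.0, 9.84 and 5.83 CPM in naive mice, 2.32, 1.44, 2.64 and 2.31 CPM in control mice and 10.9, 10.05, 4.33 and 13.1 CPM in anti-SIRPa mice. All 4 control mice, mouse 1 included, lay below all others, and among the anti-SIRPa mice number 3 was lowest. Clec3a fell 4.40-fold in control against naive mice (log2 fold change -2.14, SE 0.34, edgeR adjusted p = 0.00668). It was 4.34-fold higher in anti-SIRPa than in control mice (2.12, SE 0.34, edgeR adjusted p = 0.0158). The fall kept its call in all 12 fits that left out 1 library. The rise under anti-SIRPa kept it in 8 of these 12, and was lost without control mouse 3 or 4 or anti-SIRPa mouse 1 or 2 (edgeR adjusted p of at most 0.0708). Control mice held 11 to 35 counts of Clec3a each, so that counting error alone is a large part of their values.

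Sox9, which directs chondrocyte differentiation (ENSMUSG00000000567, chr11:112782224-112787760), varied little. Naive mice had 47.9, 44.2, 44.7 and 31.2 CPM, control mice 49.9, 59.4, 57.3 and 45.7 CPM, and anti-SIRPa mice 35.2, 40.1, 30.2 and 55.2 CPM. The groups overlapped in all comparisons. The log2 fold change was 0.34 (SE 0.18, 95% interval -0.05 to 0.73, edgeR adjusted p = 0.243) for control against naive mice and -0.40 (SE 0.18, 95% interval -0.79 to -0.01, edgeR adjusted p = 0.197) for anti-SIRPa against control mice. These intervals leave room for changes in Sox9, which are smaller than those fitted for Acan, Chad and Clec3a.

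Cnmd encodes chondromodulin, a membrane protein of avascular cartilage that inhibits vessel growth (ENSMUSG00000022025, chr14:79637690-79662170, minus strand). It ranged from 0.340 to 1.58 CPM with 5 to 21 counts per library, and all 3 groups overlapped. Its log2 fold changes had wide intervals, -1.20 to 1.35 for control against naive and -1.61 to 0.95 for anti-SIRPa against control mice, and its direction changed between fits. Snorc, a transmembrane proteoglycan of chondrocytes (ENSMUSG00000026258, chr1:87470271-87475482), had at most 7 counts in a library, in anti-SIRPa mouse 3, and did not pass the filter.

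Of the 10 members, 7 passed the filter on low counts and were tested in each comparison. In control against naive mice 3 of the 7 passed, Acan upwards and Chad and Clec3a downwards, where 10.3% of the 16674 genes tested passed (5.87% upwards and 4.45% downwards). The groups did not overlap for Chad, Clec3a and Hapln1, 3 of 7, and for 12.5% of all genes tested. The median log2 fold change of the 7 was 0.34, against 0.03 over all genes tested. Without control mouse 1 Comp joined these genes and 4 passed, where 27.2% of all genes passed in that fit. Without control mice 2 and 4, which left control mice 1 and 3, edgeR called 0 of the 7 and 0.00577% of all genes. In that fit 3 of the 7 were at an unadjusted p under 0.05, as were 2791 of the 17336 genes tested. The log2 fold changes were 1.18 for Acan, -1.11 for Chad and -1.99 for Clec3a. With all libraries DESeq2 called Acan, Chad and Clec3a and limma-voom called Chad and Clec3a. Of all genes they called 17.4% and 6.97%.

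In anti-SIRPa against control mice 2 of the 7 passed, Chad and Clec3a, both upwards, where 3.29% of all genes tested passed (1.59% upwards and 1.70% downwards). The groups did not overlap for these 2 genes and for 10% of all genes tested. The median log2 fold change of the 7 was -0.33, against -0.03 over all genes tested. This comparison shares the control mice with the one before, so that a low or high value in them moves both in opposite directions. Without control mouse 1 there were 3 calls, Acan being added, where 23.0% of all genes passed in that fit. Without naive mouse 4 and anti-SIRPa mouse 2, and likewise without control mice 2 and 4, edgeR called 0 of the 7 and 0 genes of any kind. In each of these fits 3 of the 7 were at an unadjusted p under 0.05, as were 3127 of 17036 and 2247 of 17336 genes tested. The log2 fold changes moved less than the calls, at 2.13 and 1.98 for Clec3a and 1.125 and 0.945 for Chad in these fits. With all libraries DESeq2 called Acan, Chad and Clec3a, and limma-voom called Chad. Of all genes they called 11.2% and 2.07%.

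In anti-SIRPa against naive mice 0 of the 7 passed, and 0.0% of the 16674 genes did. At an unadjusted p under 0.05 there were 675 genes in the edgeR fit and no member among them, and after adjustment DESeq2 called 20 genes and limma-voom 0, again with no member. The groups overlapped for all 7 members, and did not overlap for 4.89% of all genes. Log2 fold changes of the members ran from -0.25 for Cnmd to 0.10 for Comp. The intervals still allowed differences, from -0.78 to 0.43 for Chad, from -0.70 to 0.66 for Clec3a and from -0.90 to 0.92 for Acan.

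**Figure D2:**
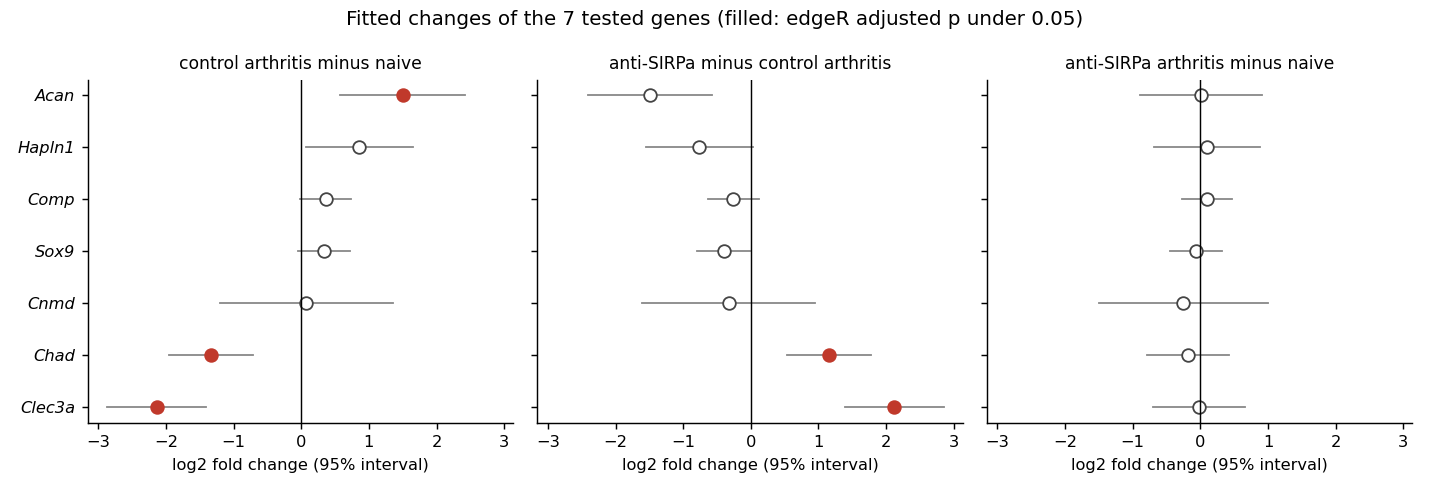
Fitted log2 fold changes (points) with 95% intervals (lines) of the 7 tested genes in the 3 comparisons. Filled points passed an edgeR adjusted p of 0.05: Acan, Chad and Clec3a in control against naive mice, and Chad and Clec3a in anti-SIRPa against control mice. All points of anti-SIRPa against naive mice lie between -0.25 and 0.10.

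Acan and Chad, both matrix genes, took opposite courses within single mice. The log2 ratio of Acan to Chad, in which library scaling cancels out, was -1.47, -1.24, -1.29 and -0.96 in naive mice and -1.15, -1.41, -0.35 and -1.44 in anti-SIRPa mice. In control mice 2, 3 and 4 it was 2.94, 2.42 and 1.35, and in control mouse 1 it was -1.07, within the naive range. Over the 12 libraries Pearson's r of log2 CPM was -0.85 between Acan and Chad, 0.90 between Chad and Clec3a and 0.81 between Acan and Comp. These coefficients describe 12 libraries that fall into groups and share their sequencing depth and composition, and they carry no test.

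**Figure D3:**
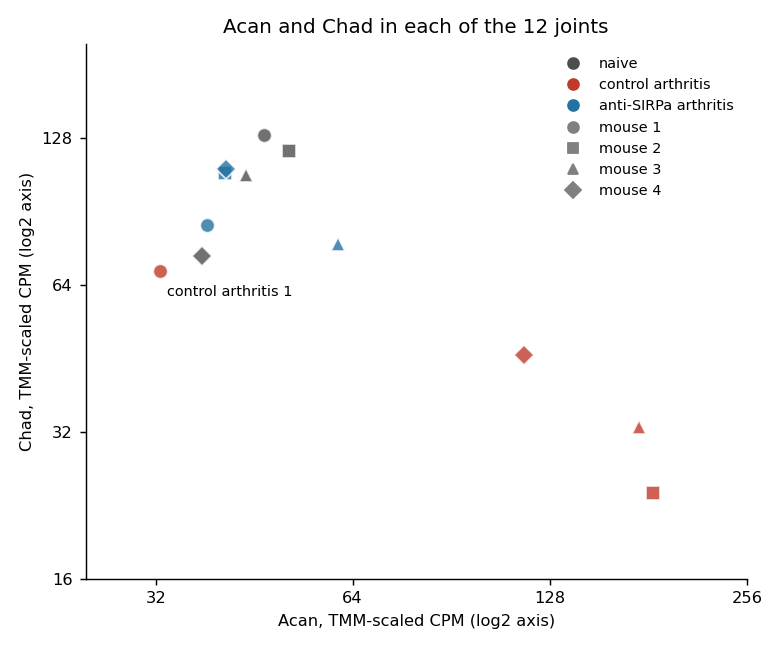
CPM of Acan (horizontal) against Chad (vertical) in each of the 12 mice, both on log2 axes. Colours are groups and symbols are mice. Control mice 2, 3 and 4 lie apart, at Acan of 117 CPM or more and Chad of 46.0 CPM or less, and control mouse 1 lies beside naive mouse 4.

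Set against the summed level of 8 cartilage collagens, the members moved differently. That sum was 139 to 209 CPM in naive, 150 to 320 CPM in control and 246 to 331 CPM in anti-SIRPa mice, so that every anti-SIRPa mouse was above every naive mouse. Col11a1 and Col11a2 made up most of it in anti-SIRPa mice. Col11a1 was at 24.4 to 54.6 CPM in naive and 67.5 to 124 CPM in anti-SIRPa mice, and Col11a2 at 40.8 to 66.8 and 91.8 to 132 CPM. The mean log2 ratio of Acan to this sum was -1.95 ± 0.17 in naive, -1.03 ± 0.93 in control and -2.63 ± 0.33 in anti-SIRPa mice (SD, n = 4). For Chad it was -0.70 ± 0.30 in naive, -2.43 ± 1.06 in control and -1.55 ± 0.28 in anti-SIRPa mice (SD, n = 4). For Comp it was 1.37 ± 0.24, 1.40 ± 0.28 and 0.81 ± 0.15 in the same order (SD, n = 4). Relative to these collagens, Acan, Comp, Chad and Sox9, 4 of the 7 tested members, were each lower in all anti-SIRPa mice than in all naive mice, as were 45.6% of all genes tested, so that this separation follows the collagen sum and is no result about the members. With Col2a1 alone as the denominator the groups overlapped for all 4 genes. No test was made of these ratios.

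Of 92 tested genes in 6 cartilage-related lists, 27 passed in control against naive mice, where 10.3% of all genes did, and 18 in anti-SIRPa against control mice, where 3.29% did. The collagens of cartilage were 8 genes, all tested. In control against naive mice 2 of them fell and none rose, where 4.45% of all genes fell. Without control mouse 1 Col11a1 and Col27a1 also passed, upwards, where 27.2% of all genes passed in that fit. Col10a1, the collagen of hypertrophic cartilage, went from 16.7 ± 4.51 in naive to 5.95 ± 1.17 CPM in control mice (SD, n = 4; log2 fold change -1.49, SE 0.27, edgeR adjusted p = 0.00964). Col9a1, whose product decorates collagen II fibrils, changed by -1.22 (SE 0.34, edgeR adjusted p = 0.0401). Col2a1 had 16.2 ± 4.94, 15.1 ± 10.6 and 20.8 ± 9.94 CPM in naive, control and anti-SIRPa mice (SD, n = 4) and did not pass. Col11a1 and Col27a1, which also lie in fine collagen fibrils, differed from naive by 1.03 and 1.00 without passing (edgeR adjusted p = 0.0975 and 0.0757). In anti-SIRPa against control mice Col10a1 rose by 1.39 (SE 0.27, edgeR adjusted p = 0.0265) and the other 7 did not pass. There 1.59% of all genes tested rose.

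Of 18 other cartilage matrix genes 13 were tested. The same 4 names, Cilp, Cilp2, Cytl1 and Vit, fell in control mice and were higher in anti-SIRPa than in control mice. Of all genes tested, 4.45% fell in the first comparison and 1.59% were higher in the other. Both comparisons share the 4 control mice. Cilp, which encodes a protein of the intermediate layer of cartilage, had 385 ± 23.3 CPM in naive, 224 ± 9.59 in control and 346 ± 46.6 in anti-SIRPa mice (SD, n = 4). It fell by 0.78 on the log2 scale in control mice (SE 0.12, edgeR adjusted p = 0.00602) and then differed from them by 0.63 in anti-SIRPa mice (SE 0.12, edgeR adjusted p = 0.0265). Cytl1, a secreted protein of chondrocytes and other cells, changed by -1.5 and 1.43, Cilp2 by -1.56 and 1.06, and vitrin, encoded by Vit, by -0.94 and 1.02. The 2 groups compared did not overlap for any of these 4 genes in either comparison. The same held for 12.5% of all genes tested in control against naive mice and for 10% in anti-SIRPa against control mice. These 4 genes were named because they passed the test on the same libraries, so that their lack of overlap is no separate result. Prg4, the lubricin of the joint surface and synovial lining, had 8175 ± 1196 CPM in naive, 6386 ± 776 in control and 7816 ± 1646 in anti-SIRPa mice (SD, n = 4) and did not pass.

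Among 12 transcription factors of chondrocytes, all tested, Runx3 rose and Mef2c fell in control against naive mice. This count of 2 is near the 10.3% of all genes that passed. Without naive mouse 4 and anti-SIRPa mouse 2 edgeR called 0 of the 12 and 0.974% of all genes. In that fit 3 of the 12 were at an unadjusted p under 0.05, as were 3637 of 17036 genes. Runx3, a RUNX factor that acts in cartilage maturation and in lymphocytes, had 2.26 ± 0.551 CPM in naive, 10.02 ± 5.63 in control and 2.82 ± 1.25 in anti-SIRPa mice (SD, n = 4; log2 fold changes 2.14 and -1.83, edgeR adjusted p = 0.0164 and 0.0460). Mef2c, which is also abundant in muscle, changed by -0.95 (SE 0.28, edgeR adjusted p = 0.0478). Sox5 and Sox6, the partners of Sox9 in activating matrix genes, had log2 fold changes of -0.09 and 0.05 in control against naive mice and did not pass.

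The list named for synthesis of chondroitin and keratan sulfate, the sugar chains of aggrecan, was split. It holds enzymes that start, lengthen or sulfate chondroitin chains, and genes of precursor supply and transport, among them Ugdh and Slc26a2. It holds no gene specific to the building of keratan chains, so that keratan chain synthesis was not tested. Of 22 genes tested, 4 rose and 3 fell in control against naive mice, where 5.87% of all genes rose and 4.45% fell. In anti-SIRPa against control mice 3 fell, where 1.70% of all genes fell. The 4 that rose start or lengthen chondroitin chains: Csgalnact1 by 2.06 (SE 0.38, edgeR adjusted p = 0.0107), Chsy1 by 1.58, Chpf by 1.2 and Chpf2 by 0.74 on the log2 scale. Csgalnact1 had 7.06 ± 1.10 CPM in naive, 29.5 ± 14.9 in control and 8.16 ± 1.55 in anti-SIRPa mice (SD, n = 4). Those that fell were the sulfotransferases Chst3 (-1.0, SE 0.22, edgeR adjusted p = 0.0177) and Chst15 (-0.43) and the chain-starting enzyme Csgalnact2 (-0.45). Csgalnact1, Chpf and Chpf2 were lower in anti-SIRPa than in control mice, by -1.85, -1.14 and -0.77 on the log2 scale.

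Of 18 genes of growth signalling in chondrocytes, all tested, 3 fell in control against naive mice and none rose, where 4.45% of all genes fell. Without control mouse 1, 6 fell and 4 rose (Bmpr1b, Gdf5, Igf1 and Pth1r), where 27.2% of all genes passed in that fit. Tgfb2, a growth factor of the TGF-beta family, had 92.3 ± 12.4 CPM in naive, 45.5 ± 8.86 in control and 83.5 ± 6.2 in anti-SIRPa mice (SD, n = 4; log2 fold changes -1.02 and 0.88, edgeR adjusted p = 0.00500 and 0.0158). Pthlh, the hormone-like signal that holds chondrocytes in proliferation, changed by -1.04 and 1.32 (edgeR adjusted p = 0.0309 and 0.0305). Bmp2 fell by 0.50 in control mice (SE 0.14, edgeR adjusted p = 0.0413) and differed from them by 0.15 in anti-SIRPa mice, which did not pass.

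Of 19 enzymes that degrade cartilage and their inhibitors, all tested, 8 rose and 1 fell in control against naive mice. Of all genes tested, 5.87% rose and 4.45% fell. Of the 8 that rose, 7 were lower in anti-SIRPa than in control mice, where 1.70% of all genes were lower. Mmp3, which encodes stromelysin, had 2.23 ± 0.294 CPM in naive, 97.4 ± 74.2 in control and 3.28 ± 1.3 in anti-SIRPa mice (SD, n = 4; log2 fold changes 5.44 and -4.89, edgeR adjusted p = 0.00807 and 0.0239). Adamts4, an aggrecanase, went from 1.15 ± 0.142 to 16.1 ± 11.9 CPM and stood at 0.961 ± 0.390 CPM in anti-SIRPa mice (SD, n = 4; 3.79 and -4.05). Mmp13, a collagenase that cuts collagen II, changed by 2.84 and -3.56, and Adamts1 by 1.36 and -1.24. The inhibitor Timp1 changed by 4.37 and -3.90, while Timp3, the inhibitor of aggrecanases, fell by 0.55 in control mice (SE 0.16, edgeR adjusted p = 0.0478). Adamts5, the other main aggrecanase, had 90.6 ± 12.5, 101 ± 12.8 and 88.3 ± 6.41 CPM in the 3 groups (SD, n = 4) and did not pass. The summed level of the 19 genes was 1401 to 1763 CPM in naive, 1524 to 1685 CPM in anti-SIRPa and 2533 to 3815 CPM in control mice 2 to 4, and 1489 CPM in control mouse 1.

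In anti-SIRPa against naive mice edgeR called 0 of the 92 tested genes of these 6 lists, with 6 at an unadjusted p under 0.05. Of the 16674 genes tested it called 0, with 675 at an unadjusted p under 0.05. The counts of the other comparisons leaned on single libraries. Without control mouse 1, 4 collagens, 6 other matrix genes, 5 transcription factors, 13 sulfate synthesis genes, 10 signalling genes and 13 enzymes and inhibitors passed in control against naive mice, 51 of the 92, where 27.2% of all genes passed in that fit. In anti-SIRPa against control mice 44 of the 92 passed in it, where 23.0% of all genes did. Without control mice 2 and 4 edgeR called 0 of the 92 genes in either comparison, with 42 and 33 of them at an unadjusted p under 0.05. Of the 17336 genes in that fit it called 0.00577% and 0%, with 2791 and 2247 at an unadjusted p under 0.05. Without naive mouse 4 and anti-SIRPa mouse 2 there were 1, 3, 0, 0, 1 and 1 calls in the same order of lists in control against naive mice, where 0.974% of all genes passed. In anti-SIRPa against control mice that fit gave 0 calls, in the lists and among all 17036 genes. There 37 of the 92 were at an unadjusted p under 0.05, as were 3127 of the 17036 genes. These counts without libraries were chosen after seeing the data.

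**Figure D4:**
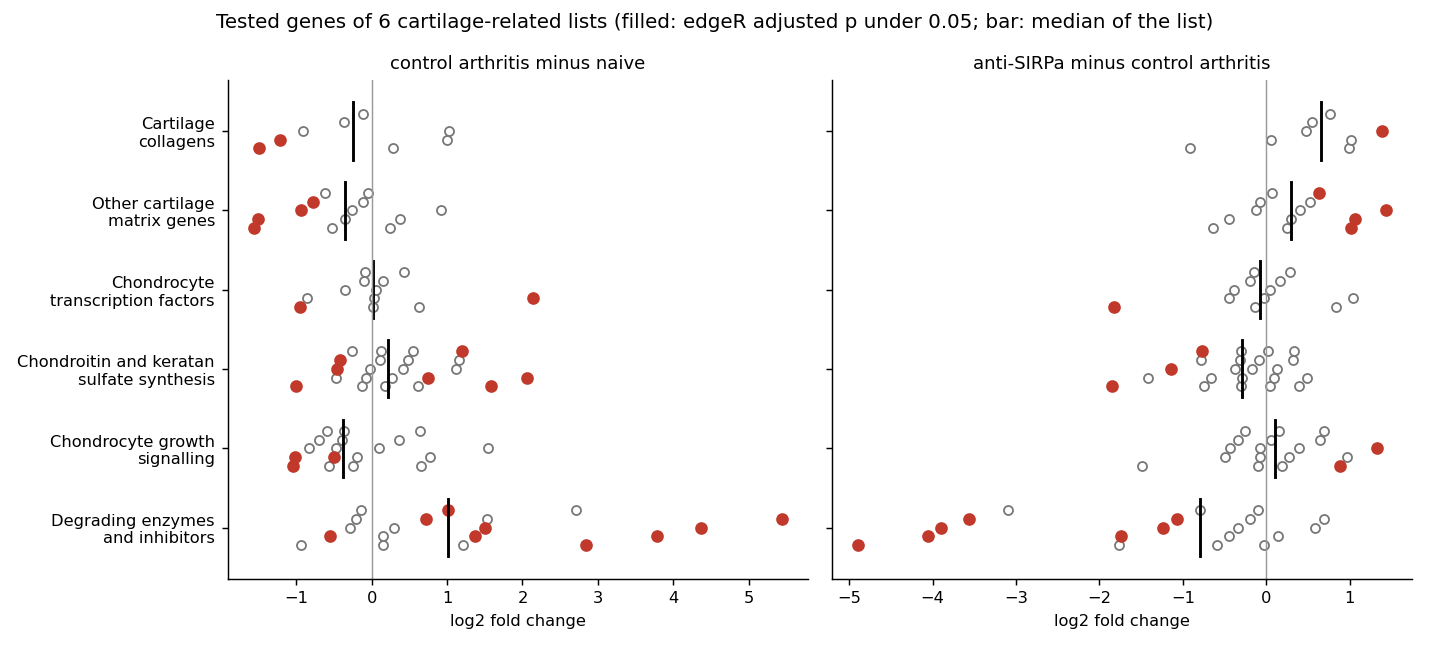
Log2 fold changes of the tested genes of 6 cartilage-related lists, for control against naive mice (left) and anti-SIRPa against control mice (right). Points are genes, filled where the edgeR adjusted p was under 0.05, and black bars are list medians. The enzymes and inhibitors have the widest range, from their 8 rises at the left to 7 falls at the right.

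**Figure D5:**
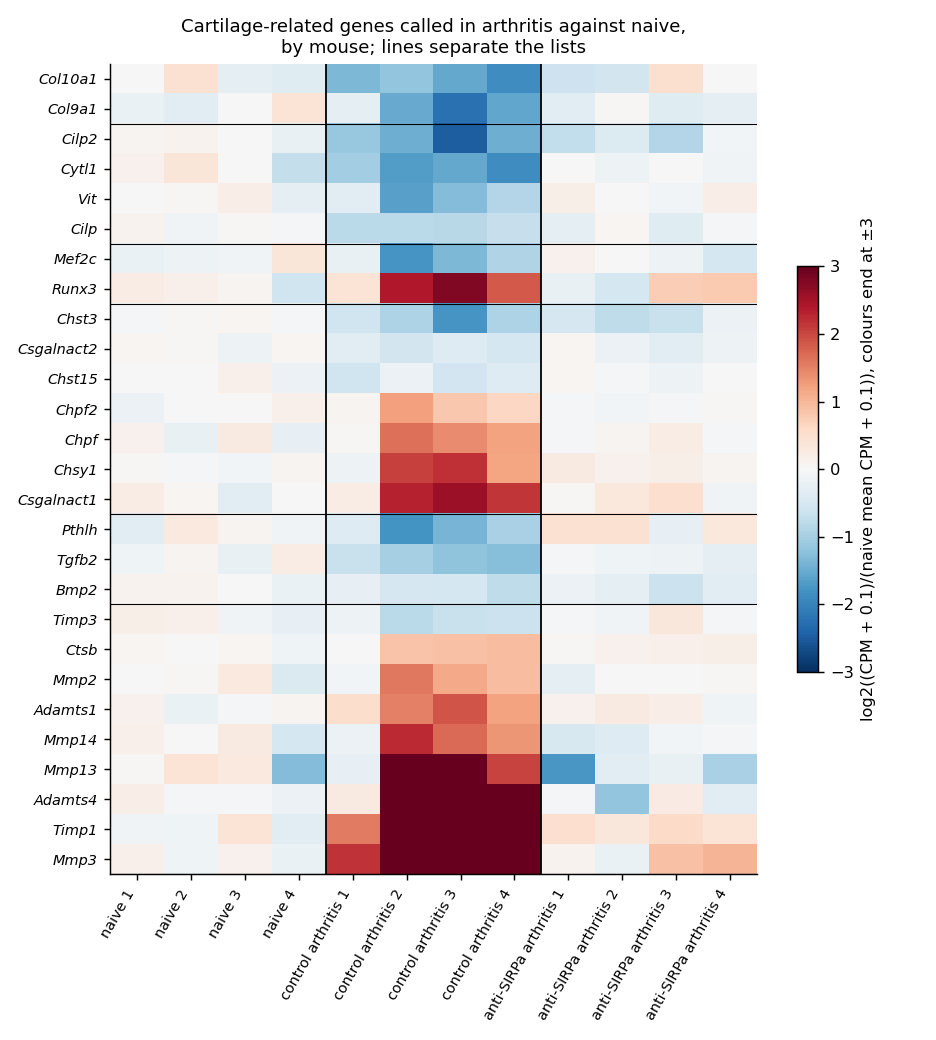
Log2 ratio of CPM to the naive mean, with 0.1 added to both, for the 27 listed genes called in control against naive mice. Rows are genes, lines separate the lists, columns are mice and colours end at ±3. Control mice 2, 3 and 4 differ from the naive mice in most rows, and control mouse 1 is paler, with Mmp3 and Timp1 among its stronger rises.

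Markers of other tissues of the paw differed between the same libraries, and their part in the results for the members was not tested. Of all genes tested, 5.87% rose and 4.45% fell in control against naive mice. In anti-SIRPa against control mice 1.59% were higher and 1.70% lower. The summed level of 14 skeletal muscle genes was 93743 to 133362 CPM in naive, 71534 to 107265 CPM in anti-SIRPa and 43847 to 72855 CPM in control mice 2 to 4, and 110962 CPM in control mouse 1. In control against naive mice 3 of the 14 fell, Eno3, Myh2 and Myl1. Between anti-SIRPa and control mice edgeR called 0 of the 14, with 3 at an unadjusted p under 0.05 and a median log2 fold change of 0.52. The groups did not overlap there for Eno3 (1.27, edgeR adjusted p = 0.0660), Mylpf and Myl1. For 7 tendon and ligament genes the sum was 2267 to 4808 CPM in naive, 3355 to 20674 CPM in control and 4062 to 6145 CPM in anti-SIRPa mice, of which Col1a1 took 74.0% to 83.1% in naive, 87.2% to 95.1% in control and 84.0% to 88.5% in anti-SIRPa mice. Col1a1 was the only one of the 7 that passed (log2 fold change 2.09 in control against naive mice, edgeR adjusted p = 0.0165). Tnmd and Scx, which define tendon, did not pass and had 3.41 to 12.4 CPM and 13.0 to 25.4 CPM. Of 9 bone genes Col1a1 and Ibsp rose in control mice and Phex was higher in anti-SIRPa than in control mice. Their sum was 1806 to 4108, 3026 to 19996 and 3710 to 5602 CPM in naive, control and anti-SIRPa mice. Most of it was Col1a1, at 1734 to 3997, 2927 to 19663 and 3562 to 5437 CPM. The median log2 fold change of the 9 was -0.13 in control against naive mice.

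Of 7 synovial fibroblast genes Has1 and Pdpn rose and Clic5 fell in control against naive mice. Each went the other way in anti-SIRPa against control mice. Of all genes tested, 5.87% rose and 4.45% fell in the first comparison, and 1.59% rose and 1.70% fell in the other. The sum of these 7 was 7747 to 10584, 6032 to 8008 and 7094 to 10962 CPM in naive, control and anti-SIRPa mice. Most of it was Prg4, at 7038 to 9862, 5475 to 7357 and 6436 to 10158 CPM. Of 7 tested leukocyte genes of 9, Cd68, Cxcr2 and Ptprc rose in control against naive mice. Between anti-SIRPa and control mice edgeR called 0 of the 7. Cxcr2 alone was at an unadjusted p under 0.05 (log2 fold change -2.53, edgeR adjusted p = 0.0630), as were 4066 of the 16674 genes tested. Sums of the leukocyte genes were 177 to 190, 148 to 356 and 228 to 270 CPM in naive, control and anti-SIRPa mice. None of 11 epidermal genes passed, with sums of 9.58 to 13302, 457 to 4919 and 8.56 to 18431 CPM. In anti-SIRPa against control mice 1 of 6 tested erythroid genes (Hbb-bs), 2 of 5 adipocyte genes (Adipoq and Plin1) and 1 of 4 endothelial genes (Tek, which had fallen in control mice) were higher. Erythroid sums in naive, control and anti-SIRPa mice were 12.2 to 14.1, 6.43 to 12.2 and 15.9 to 43.2 CPM. They leave out Ahsp, which was listed but had no match in the count table. In the same order, sums of the 5 adipocyte genes were 77.1 to 110, 34.2 to 134 and 133 to 220 CPM. Those of the 4 endothelial genes were 130 to 166, 91.7 to 211 and 120 to 158 CPM. No matched gene of these lists was at 0 in all 4 libraries of a group.

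The protein-coding genes with a mean log2 CPM of at least 1 whose profile over the 12 libraries was most like the mean standardised profile of the 7 tested members were 1500015O10Rik (Pearson's r 0.93), Fat1 (0.90), Lima1 (0.90), Fam167a (0.88) and Zdhhc20 (0.88). That mean combines members that rose with members that fell, and the log2 fold changes of these 5 genes in control against naive and anti-SIRPa against control mice ran from -0.40 to 0.37. Profiles of single members, looked at after the values were seen, were closest to Kirrel and Pxdn for Acan (r 0.98 for both) and to Sema3d (0.99) and Itih5 (0.98) for Chad. Pxdn had 29.2, 77.2 and 30.4 CPM and Sema3d 45.3, 23.2 and 46.0 CPM on average in naive, control and anti-SIRPa mice. For Clec3a they were closest to Insig1 (0.98) and S100a6 (0.96). These coefficients are descriptions over 12 libraries with no test.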

How the data were processed

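Paw joint RNA of 12 mice, 4 per group, was sequenced with a stranded total RNA library kit, per the labels' protocols. The values deposited by the authors are raw counts per gene in whole numbers, without normalization, and the build is GRCm38 per the submitters' processing notes. The sources used here name no aligner, counting program or strand setting, so that reads of overlapping genes on opposite strands may not be told apart. All 12 sample files matched the series table, 52403 of 52636 identifiers had a GENCODE M21 symbol, and identifiers without one held 0.0240% of counts. No pair of libraries in a group agreed within sampling noise (lowest chi-square per gene 8.95).

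The main test used edgeR 4.0.16 (R 4.3.3). After filterByExpr by group, 16674 genes remained. TMM factors were computed, and a robust quasi-likelihood model with 1 coefficient per group was fitted to all 12 libraries (biological coefficient of variation 0.334). Adjusted p-values are Benjamini-Hochberg values over all genes tested, with a threshold of 0.05. SE and 95% intervals of log2 fold changes come from the same fit. CPM per kb uses the summed exon length of GENCODE M21. Log2 CPM for correlations has a prior count of 2. The floor of 3 counts covers counting error only, since no molecular identifiers are described. DESeq2 1.42.0 and limma-voom (limma 3.58.1) were alternatives, with other scaling, filters, groups of libraries and a replicate block.

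Members and gene lists were chosen with earlier results of these data known. All 10 members are named, and from each list up to 4 genes with the smallest p in a comparison and genes that passed; Adamts5, Prg4, Col2a1, Sox5, Sox6, Tnmd and Scx and the near-absent cartilage genes were named for their roles, after their values were seen. Promoter sequences are RefSeq entries on GRCm38.p6, found for 6 of the 10 members.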

Additional observations from a re-analysis of the deposited data

Results flagged for a closer look

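Acan in anti-SIRPa mouse 3, at 60.9 CPM, lay apart from the other anti-SIRPa mice, which had 38.3 to 41.0 CPM. Its gap to the nearest of them exceeded the critical value of Dixon's test at the 95% level. Among 21 groups of 4 values looked at (7 genes in 3 groups) this was the only one, and chance alone gives about 1 in 20. The same mouse had the lowest Clec3a of its group, 4.33 CPM, and the highest Col2a1 of all mice, 35.2 CPM.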

How the results depend on the processing

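Of the members, 3 passed in control against naive mice, and 1 did without a filter (Clec3a) or with only those groups in the fit (Clec3a), and 0 without control mice 2 and 4. Leaving out 1 library gave 1 to 4. In anti-SIRPa against control mice 2 passed, against 1 without a filter or with limma-voom, and 0 with only those groups, with a replicate block, without the naive and anti-SIRPa mice poor in epidermis, or without control mice 2 and 4. Leaving out 1 library gave 0 to 3. In anti-SIRPa against naive mice every setting run gave 0. Genes of any kind that passed numbered 1721, 548 and 0 in the 3 comparisons. With DESeq2 there were 2905, 1871 and 20, with limma-voom 1163, 345 and 0, without a filter 1487, 646 and 4, and with only the compared groups 435, 0 and 0. The replicate block gave 735, 78 and 0, the libraries without the epidermis-poor mice 166, 0 and 0, and those without control mice 2 and 4 gave 1, 0 and 0. Leaving out 1 library gave 412 to 4694 and 0 to 3976. Same-numbered libraries did not deviate together (correlations -0.80 to 0.207), so the replicate block rests on numbers that may only name mice, and it left Chad and Clec3a called against naive.

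Directions that changed were all of log2 fold changes that did not pass, and the cause was not tested. Cnmd in control against naive mice was -0.0916 with limma-voom, -0.0744 without the epidermis-poor mice and -0.88 without control mice 2 and 4, and -0.33 to 0.36 leaving out 1 library. Without control mice 2 and 4, anti-SIRPa against control gave 0.0156 for Comp and 0.64 for Cnmd, which ran from -0.91 to 0.0823 leaving out 1 library. In anti-SIRPa against naive mice Acan was -0.0115 with limma-voom and -0.0290 with the replicate block. Leaving out 1 library there gave -0.17 to 0.0832 for Acan, -0.20 to 0.22 for Clec3a, -0.14 to 0.30 for Hapln1, -0.84 to 0.0414 for Cnmd and -0.25 to 0.0510 for Sox9. The difference between anti-SIRPa and naive mice in the log2 ratio of Comp to the cartilage collagens, -0.565, was 0.201 against the summed other members. Depth limits Matn1, Matn3, Snorc and Cnmd most.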
